A study of Mus musculus with 20 samples.

Results

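Collagen chain genes other than 7 cartilage collagens were described in RNA-seq of mouse tibiae. They were taken as every gene of the count table with a symbol of the form Col, a number, a and a number, except the cartilage collagens Col2a1, Col9a1, Col9a2, Col9a3, Col10a1, Col11a1 and Col11a2. This gave 37 members of 54446 genes, out of 44 collagen chain symbols. The members were sorted by the structure that their chains build into 8 fibrillar, 6 basement membrane (type IV), 6 FACIT, 6 beaded filament (type VI), 2 multiplexin, 3 network and anchoring, 4 transmembrane and 2 other chains.

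The tibiae came from male C57BL/6J mice aged 3 months, which received injections of dexamethasone (DEX, 1 mg/kg subcutaneously) or of water (vehicle) for 5 days. Axial load of -13 N, repeated 40 times in a session, was put on the left tibia on days 1 and 3 according to the labels, and the right tibia of the mouse carried none. The study's methods give a different number of loading sessions a week, so when loading took place differs between the sources. Each combination of treatment and loading had 5 libraries, which gave 20 in all: unloaded vehicle, loaded vehicle, unloaded DEX and loaded DEX. The labels do not say that libraries with the same number came from the same mouse, and the frozen bones were pulverized for extraction, so each library mixes all cells of the sample. In such bulk samples, fewer cells of a type and less RNA per cell cannot be told apart.

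A collagen is a trimer of chains wound into a triple helix, and each chain has its own gene. Fibrillar collagens form the fibrils of bone, tendon and skin, and type I collagen, built from Col1a1 and Col1a2 chains, is the main protein of bone matrix made by osteoblasts. FACIT collagens sit on the surface of fibrils, type IV collagens form the sheet of basement membranes around vessels, muscle fibres and nerves, and type VI collagen forms beaded filaments around cells. Glucocorticoids such as DEX are known to restrain bone formation.

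Unloaded DEX replicate 4 is shown but was left out of means and tests, since the study removed a sample of that number, and the comparisons that it touches are also given with it. Library totals ranged from 4641437 to 13032018 counts. The members took 3.79% to 13.6% of all counts in unloaded vehicle libraries, 7.30% to 10.4% in loaded vehicle libraries, 0.891% to 4.09% in unloaded DEX libraries and 0.715% to 2.696% in loaded DEX libraries. Reads over olfactory and vomeronasal receptor genes, which a tibia is not expected to use, served as a measure of background in each library. Their summed level was 237 to 844 CPM (counts scaled to library size) in loaded vehicle libraries and 1002 to 5949 CPM in loaded DEX libraries, without overlap, against 351 to 1254 CPM in unloaded vehicle and 727 to 2676 CPM in unloaded DEX libraries. Bone and periosteum markers were present in every group, none of the 8 osteoblast markers being at 0, and the 8 skeletal muscle markers summed to 4007 to 20544 CPM in loaded vehicle libraries and to 8641 to 41196 CPM in unloaded vehicle libraries.

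Levels of the members ranged from 0.169 to 5645 CPM per kb of the longest transcript, averaged over the groups. On this scale Col1a1 stood at 5645 and Col1a2 at 3086, followed by Col3a1 at 615. Next came the type V chains Col5a2 at 163 and Col5a1 at 108, the FACIT chain Col12a1 at 108, and the type VI chains Col6a2 at 92.9, Col6a1 at 87.6 and Col6a3 at 72.1. The basement membrane chains Col4a1 and Col4a2 had 51.8 and 34.9 CPM per kb. With the union of exons as the length, Col1a2 stood at 1328 and Col3a1 at 349 CPM per kb, with their ranks among the members unchanged.

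A member was called above background in a library where its CPM per kb exceeded the 95th percentile of the receptor genes there. By this measure 21 members were above background in all 20 libraries and 14 in some of them. Col4a3 and Col4a6 were above it in 0 libraries, with 7 to 45 and 5 to 20 counts per library. Col24a1 and Col25a1 missed it in 1 library each. The other members between these extremes, such as Col7a1 of the anchoring fibrils of skin, Col17a1 of hemidesmosomes and the kidney chains Col4a4 and Col4a5, passed it in 3 to 18 libraries.

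**Figure D1:**
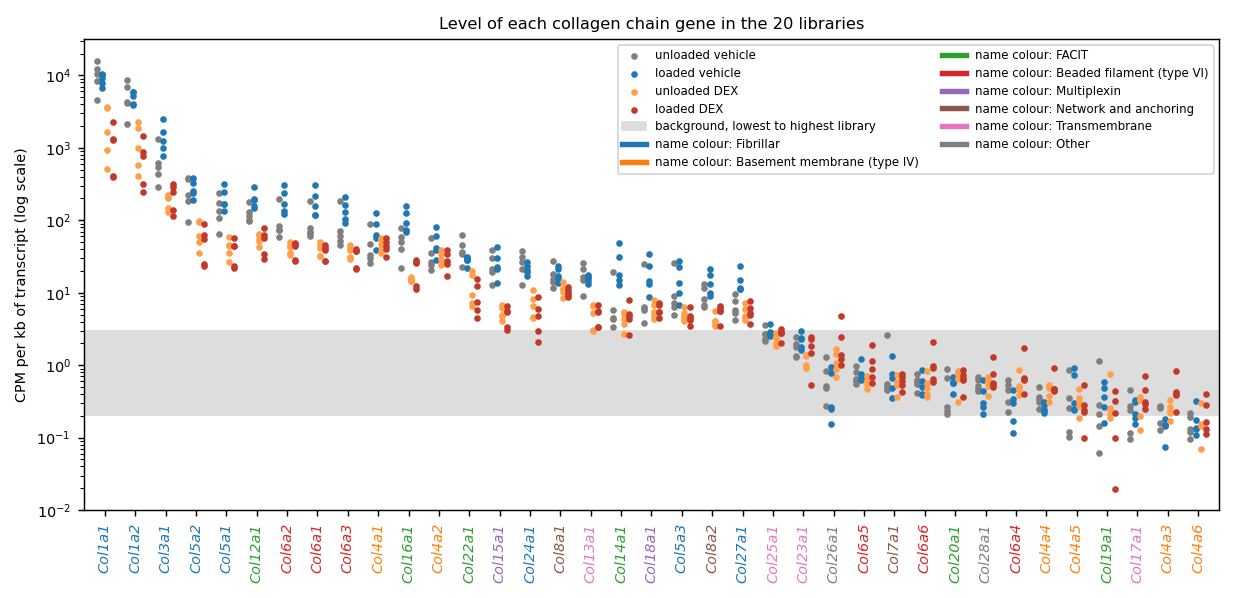
Level of each of the 37 collagen chain genes in CPM per kb of transcript on a log axis, with 1 point per library coloured by group and the gene names coloured by class; the grey band spans the background measured in the 20 libraries. Col1a1, Col1a2 and Col3a1 lie highest, and the genes from Col6a5 to Col4a6 lie within or below the grey band, whereas some points of Col25a1, Col23a1 and Col26a1 rise above it.

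DEX was first compared with vehicle in loaded tibiae (5 libraries each), which asks how the collagen genes differed under the steroid when the bone was loaded. All 8 fibrillar chains, 4 of the 6 FACIT chains, the type VI chains Col6a1, Col6a2 and Col6a3 and both multiplexins were lower with DEX, from 2.52-fold for Col27a1 to 7.50-fold for Col1a1, whereas the type IV chains Col4a1 and Col4a2 were not called. Col4a6 did not pass the filter on low counts in any comparison of 2 groups. Of the 36 members tested, 20 were lower in DEX, against 8.35% of the 19780 genes tested, and 4 were higher, against 12.9% of them (edgeR quasi-likelihood test, adjusted p under 0.05). The groups did not overlap, with DEX lower, for 20 of the 36 members tested, against 8.85% of all genes. This count comes from the same values as the test and adds no separate support. The median log2 fold change was -1.33 over the members tested and 0.00 over all genes.

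Col1a1 (ENSMUSG00000001506.10, GRCm38 chr11:94936224-94953042, plus strand), the first chain of type I collagen, had 59629, 54557, 40131, 46349.8 and 61291 CPM in loaded vehicle replicates 1, 2, 4, 5 and the unnumbered library. It had 7945, 13678, 7650.4, 2458 and 2382 CPM in loaded DEX replicates 1 to 5, an order of libraries kept below. The highest DEX library thus lay below the lowest vehicle library. Col1a1 was 7.50-fold lower, with a log2 fold change of -2.91 ± 0.48 (SE) and an edgeR adjusted p of 0.00303.

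Its partner Col1a2 (chr6:4504814-4541544, plus strand), the second chain of type I collagen, had 31934, 27623, 21187, 21153 and 31036 CPM in loaded vehicle and 4102, 7777, 4632, 1326 and 1690.3 CPM in loaded DEX libraries. It was 6.64-fold lower (log2 fold change -2.73 ± 0.45, edgeR adjusted p 0.003), and loaded DEX replicate 2 was the highest DEX library for both chains. Col3a1 (chr1:45311538-45349706, plus strand), which forms type III collagen of soft connective tissue and vessel walls, had 13939.8, 5454, 6957, 4331 and 9092 CPM in loaded vehicle and 1372, 1761, 1593, 781 and 629 CPM in loaded DEX libraries. It was 6.30-fold lower, and loaded vehicle replicate 1 stood above the others of its group.

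Type V collagen takes part in starting type I fibrils. Its chain Col5a1 (chr2:27886425-28039514, plus strand) fell from 1747 ± 635 (SD, n = 5) to 319.6 ± 127 CPM (n = 5), and Col5a2 (chr1:45374321-45503282, minus strand) from 1839.6 ± 505 to 336 ± 179.8 CPM. Their log2 fold changes of -2.41 ± 0.32 and -2.42 ± 0.36 were close to each other. The third type V chain, Col5a3, and the less abundant fibrillar chains Col24a1 and Col27a1 had log2 fold changes of -1.73, -2.07 and -1.33, so that Col27a1 changed least within the class.

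Among the FACIT members 4 of 6 were lower with DEX in loaded tibiae. Col12a1 (chr9:79598991-79718831, minus strand), a collagen of tendon and periosteum, had 3266, 1789.9, 2284, 1684 and 2227 CPM in loaded vehicle and 894, 659, 724, 333 and 393 CPM in loaded DEX libraries, without overlap. Its log2 fold change was -1.87 ± 0.29 (edgeR adjusted p 0.00234). Larger differences were measured for Col14a1 (chr15:55307750-55520803, plus strand), also a tendon collagen, at -2.30 ± 0.37, and for Col16a1 at -2.28 ± 0.31. Col22a1, known from the junction of muscle and tendon, had -1.59 ± 0.28. Col19a1 (-0.73, adjusted p 0.394) and Col20a1 (0.24, adjusted p 0.591), both near background, were not called.

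The type VI class split by level. Col6a1 (chr10:76708792-76726168, minus strand) had 1276, 490.1, 645, 492 and 886 CPM in loaded vehicle and 159, 167, 184, 112 and 112 CPM in loaded DEX libraries, and its fold change of 5.00 lower (log2 -2.32 ± 0.28, edgeR adjusted p 0.000512) came with Col6a2 at -2.28 ± 0.28 and Col6a3 at -2.09 ± 0.27. These 3 chains make up the common type VI trimer. Col6a4, Col6a5 and Col6a6, whose chains can take the place of the Col6a3 chain, are near background and were not called lower. Col6a4 was called higher at 1.59 ± 0.46, and Col6a5 (0.43) and Col6a6 (0.95) were not called by edgeR, and DESeq2 called Col6a6 (adjusted p 0.0488), against 17.5% of all genes that it called higher. Col6a5 exceeded the background of its own library in 5 of 5 loaded vehicle and 1 of 5 loaded DEX libraries (median ratio 2.98 and 0.741), and Col6a6 in 4 of 5 and 1 of 5 (1.81 and 0.736).

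Both multiplexins, collagens of the basement membrane zone, were lower with DEX in loaded tibiae. Col15a1 (chr4:47208161-47313167, plus strand) had 224, 109, 118, 70.6 and 157 CPM in loaded vehicle and 27.8, 34.2, 28.7, 17.3 and 15.6 CPM in loaded DEX libraries, a 5.31-fold difference (log2 -2.41 ± 0.30, edgeR adjusted p 0.000583). Col18a1, the source of endostatin, had -1.65 ± 0.30. Its gene overlaps Slc19a1 on the other strand, and the strand setting of the counting is not given in the sources used here.

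Col4a1 and Col4a2, the chains of the widespread basement membrane collagen, were not called. Col4a1 (chr8:11198423-11312826, minus strand) had 824, 371, 417, 260.0 and 595 CPM in loaded vehicle and 295, 376, 329, 208 and 263 CPM in loaded DEX libraries, and Col4a2 (chr8:11312805-11449287, plus strand) had 522, 249.7, 272, 183 and 389 and 174, 252, 224, 109.9 and 161 CPM. The groups overlapped for both chains. The log2 values were -0.70 ± 0.27 (edgeR adjusted p 0.0797) and -0.77 ± 0.28 (adjusted p 0.063), and DESeq2, which called 11% of all genes lower, called both, with adjusted p of 0.037 and 0.0256. Whether the type IV and fibrillar chains differed from each other in this respect was not tested.

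Of the remaining classes, the transmembrane chain Col13a1, known from the neuromuscular junction, had the lowest adjusted p of all members. It stood at 50.4, 54.8, 41.5, 46.0 and 52.1 CPM in loaded vehicle and 17.7, 21.3, 17.4, 10.55 and 10.5 CPM in loaded DEX libraries, and was 3.06-fold lower (log2 -1.61 ± 0.18, edgeR adjusted p 0.000351). The network chains Col8a1 and Col8a2, known from vessels and cornea, had -0.81 ± 0.16 and -1.33 ± 0.24 and were both called lower. The transmembrane chains Col17a1, Col23a1 and Col25a1 ranged from -0.33 to 0.77 and were not called.

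The 4 members called higher with DEX in loaded tibiae were the basement membrane chains Col4a3 (1.73 ± 0.41, edgeR adjusted p 0.0146) and Col4a4 (1.14 ± 0.28), the type VI chain Col6a4, and Col26a1 (2.23 ± 0.58). Col26a1 had 0.729, 0.684, 2.63, 2.20 and 0.431 CPM in loaded vehicle and 6.71, 2.84, 3.42, 13.2 and 3.79 CPM in loaded DEX libraries, with replicate 4 highest. Loaded DEX replicate 4 also had the highest receptor level of all 20 libraries, 5949 CPM. Relative to the background of their own library, the loaded DEX values were 0.281 to 0.498 times for Col4a3, 0.312 to 0.768 for Col4a4, 0.496 to 1.12 for Col6a4 and 1.32 to 1.78 for Col26a1. In loaded vehicle libraries they were 0.275 to 0.896, 0.559 to 1.18, 0.578 to 1.69 and 0.766 to 1.78 times. Thus these 4 chains were close to the level of receptor genes in both groups. Without DEX replicates 1 and 4, Col4a4 was the one of them still called.

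With the receptor level of each library as a covariate, 0 members were called with DEX in loaded tibiae, as were 29 genes in all, and this level did not overlap between the groups. The 20 members called lower were still lower in that fit, Col1a1 with a log2 fold change of -1.92 (edgeR adjusted p 0.246), whereas Col26a1 turned to -0.14.

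**Figure D2:**
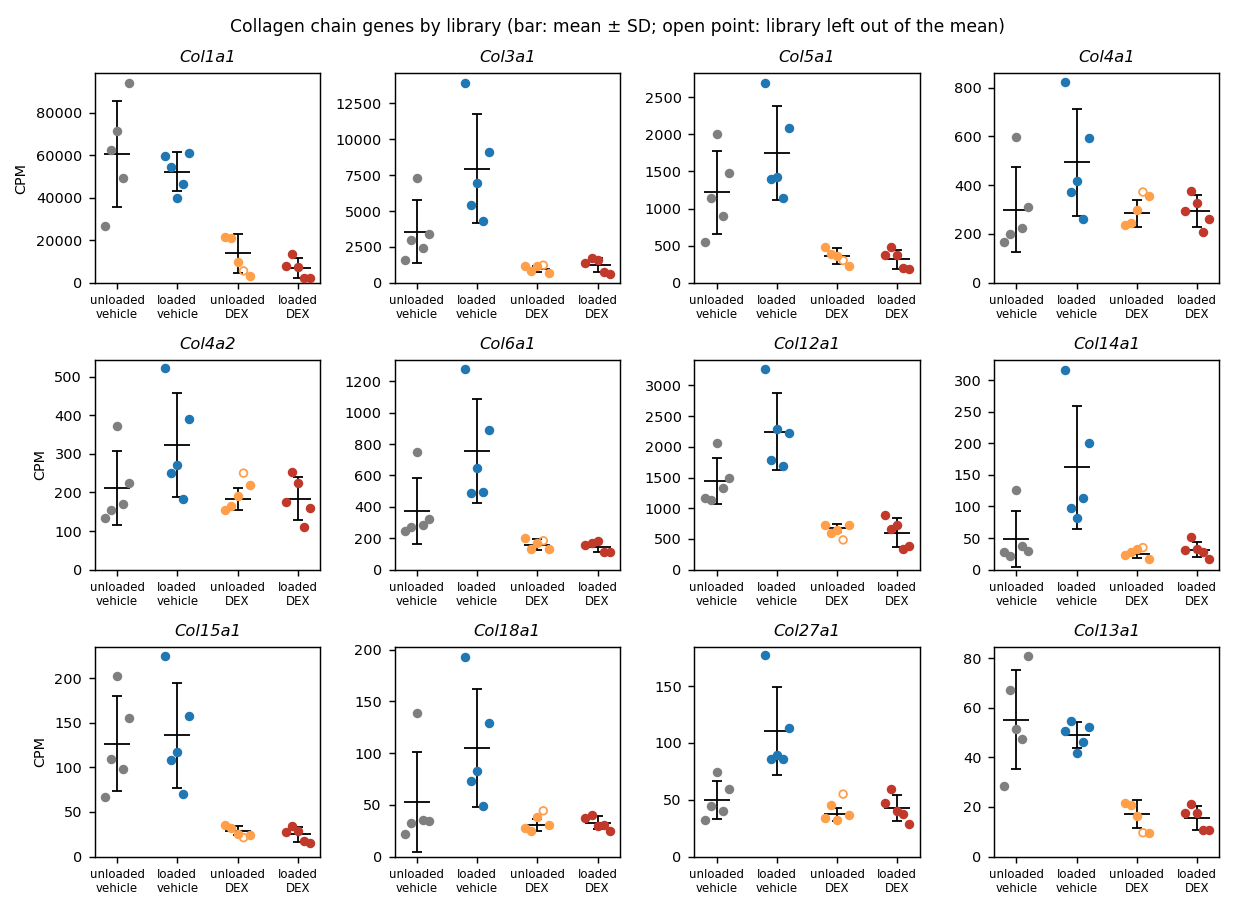
CPM of 12 collagen chain genes in the 4 groups, with 1 point per library and bars for the mean ± SD; the open point is unloaded DEX replicate 4, which was left out of the means and tests. In loaded tibiae the DEX points of Col1a1, Col3a1, Col5a1, Col6a1, Col12a1, Col14a1, Col15a1, Col18a1, Col27a1 and Col13a1 lie below all vehicle points, and those of Col4a1 and Col4a2 overlap them.

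In unloaded tibiae, DEX (4 libraries, replicate 4 left out) was compared with vehicle (5 libraries). The calls covered 6 of the 8 fibrillar and 3 of the 6 FACIT chains. These, Col6a1, Col6a2, Col15a1, Col8a2 and Col13a1 were lower with DEX, from 2.10-fold for Col12a1 to 4.4-fold for Col1a1, and no member was called higher. Of the 36 members tested, 14 were called lower, against 3.99% of the 19738 genes tested, and 0 higher, against 2.86%. DESeq2 called 16 lower, against 7.34% of all genes, and 0 higher, against 4.94%. The groups did not overlap for 13 members that were lower, against 6.4% of all genes. The median log2 fold change was -0.74 over the members tested and 0.03 over all genes, and the members' median became -0.40 without unloaded vehicle replicate 4, with 11 members among 830 genes called, and -0.49 with the receptor level as a covariate.

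Here 6 of the 8 fibrillar chains were called. Col1a1 had 26931, 62295, 71485, 49227 and 94055 CPM in unloaded vehicle libraries and 21551, 21258, 9655, 5612 and 3062 CPM in unloaded DEX replicates 1 to 5, of which replicate 4 was not used in the test. Both groups spread widely, and unloaded vehicle replicate 1 was the lowest of its group. The log2 fold change was -2.14 ± 0.56 (edgeR adjusted p 0.0418), and that of Col1a2 was -1.92 ± 0.52 (adjusted p 0.0469), close to the threshold. Col3a1 had 1605, 2990.0, 7287, 2427 and 3419 CPM in unloaded vehicle and 1182, 828, 1142, 1228 and 715 CPM in unloaded DEX libraries, and was 3.63-fold lower (log2 -1.86 ± 0.39, edgeR adjusted p 0.0194). Col5a1 (-1.73), Col5a2 (-1.80) and Col24a1 (-1.76) were also called, whereas Col5a3 (-1.19, adjusted p 0.105) and Col27a1 (-0.41, adjusted p 0.268) were not. DESeq2 also called Col5a3 (adjusted p 0.0306).

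The multiplexin Col15a1 had the lowest adjusted p of the members in unloaded tibiae. It stood at 67.0, 109, 203, 98.5 and 155 CPM with vehicle and at 35.1, 31.7, 25.4, 21.2 and 24.4 CPM with DEX, so that every DEX value lay below every vehicle value. Its log2 fold change was -2.10 ± 0.28 (edgeR adjusted p 0.00431), against -0.76 ± 0.46 (adjusted p 0.328) for Col18a1. FACIT chains Col16a1 (-1.68 ± 0.29), Col22a1 (-1.58 ± 0.33) and Col12a1 (-1.07 ± 0.20) were lower, and Col14a1 (-0.91 ± 0.46, adjusted p 0.243) was not called. Col13a1 (-1.69 ± 0.30) and Col8a2 (-1.10 ± 0.24) were lower as in loaded tibiae.

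Among the type VI chains, Col6a1 (-1.22 ± 0.31, edgeR adjusted p 0.0372) and Col6a2 (-1.24 ± 0.32, adjusted p 0.0377) were called, and Col6a3 (-1.21 ± 0.37, adjusted p 0.0708) was not, although its groups did not overlap and DESeq2 called it (adjusted p 0.00963). Col4a1 had 169, 202, 597, 223 and 309 CPM in unloaded vehicle and 237, 247, 298, 372 and 355 CPM in unloaded DEX libraries. Its log2 fold change of -0.05 ± 0.32 and that of -0.18 ± 0.27 for Col4a2 were within 1 SE of 0. The other members not named here ranged from -0.72 to 0.77.

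With unloaded DEX replicate 4 kept, 16 members were called lower in unloaded tibiae and 0 higher, and Col1a1 had a log2 fold change of -2.30. That fit called 2922 of 19271 genes in all, against 1351 of 19738 in the main fit. The count in unloaded tibiae depended on single libraries: 1 member, Col15a1, was called without unloaded DEX replicate 3, and 9 were called without unloaded DEX replicate 2, without unloaded vehicle replicate 5, or with the receptor level as a covariate. Genes called in all were 129, 828, 530 and 2657 in these fits, in the same order. Leaving out single libraries in loaded tibiae gave 23 to 27 calls, with 2696 to 5822 genes called in all.

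**Figure D3:**
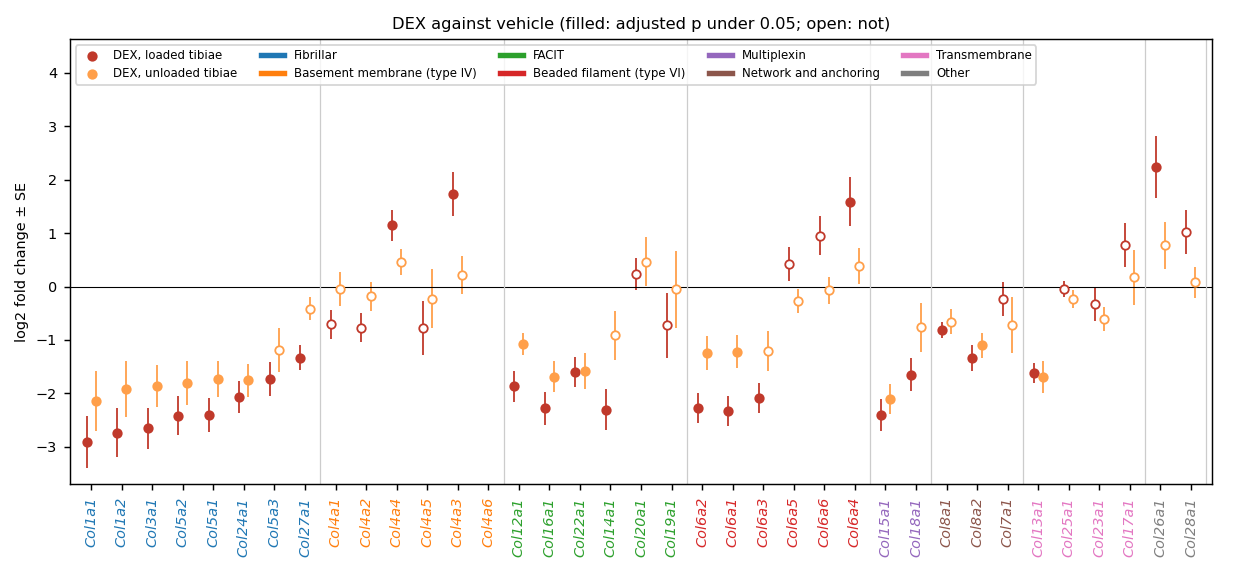
Log2 fold change of DEX against vehicle with its SE for each collagen chain gene in loaded and in unloaded tibiae, grouped by class; filled points passed an adjusted p of 0.05 and open points did not. The 8 fibrillar genes lie below 0 in both kinds of tibia, Col4a1 and Col4a2 are open in both, and the filled points above 0 are Col4a3, Col4a4, Col6a4 and Col26a1 in loaded tibiae.

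Loading was compared within vehicle-treated mice (5 loaded and 5 unloaded libraries), which asks how mechanical load changed the collagen genes without the steroid. No member passed the adjusted threshold, and 0% of the 17982 genes tested did so with edgeR. At an unadjusted p under 0.05, 8 of the 36 members tested were higher with loading, against 3.9% of all genes, and 1 was lower, against 5.96%. DESeq2 called 1 member and 143 genes. The median log2 fold change was 0.10 over the members tested and 0.00 over all genes.

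The member called by DESeq2 was Col27a1 (chr4:63214004-63334991, plus strand), a fibrillar chain known from developing cartilage. It had 32.0, 44.2, 74.1, 40.2 and 59.3 CPM in unloaded and 177, 86.1, 89.7, 86.1 and 113 CPM in loaded vehicle libraries, so that every loaded value lay above every unloaded value. Its log2 fold change was 1.12 ± 0.24 with an unadjusted p of 0.000593 and an adjusted p of 0.22 by edgeR, against an adjusted p of 0.00512 by DESeq2. The type I chains did not follow it, since Col1a1 had -0.24 ± 0.31 and Col1a2 -0.10 ± 0.33, both within 1 SE of 0.

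The largest difference with loading was that of the FACIT chain Col14a1. It had 27.8, 22.1, 126, 37.2 and 28.9 CPM in unloaded vehicle and 316, 97.5, 82.2, 113 and 201 CPM in loaded vehicle libraries. Unloaded replicate 4 lay within the loaded range, and the other 4 unloaded libraries lay below it. The log2 fold change was 1.72 ± 0.50 (edgeR unadjusted p 0.00477, adjusted p 0.34). The other members under the unadjusted threshold were Col16a1 (1.03), Col12a1 (0.62), Col6a1 (1.00), Col6a2 (0.99), Col3a1 (1.14) and Col8a2 (0.59), all with higher fitted levels, and Col22a1 with a lower fitted level (-0.55). Col18a1 had 0.98 ± 0.49 and did not reach that threshold (edgeR unadjusted p 0.0664).

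Unloaded vehicle replicate 4 stood apart from its group in several chains, with 747 CPM of Col6a1 against 245 to 320.3 in the others, and 138 CPM of Col18a1 against 21.3 to 35.4. Without it, the fitted log2 values became 2.45 for Col14a1, 1.73 for Col18a1, 1.41 for Col6a1 and 1.57 for Col3a1, and the median over the members tested became 0.46. Even so, 0 members passed the adjusted threshold by edgeR, the lowest adjusted p being 0.0884 for Col14a1. Beside these values, the 6 chondrocyte markers summed to 74.8 to 151 CPM in unloaded and 194 to 696 CPM in loaded vehicle libraries, and the 8 periosteum and tendon markers to 1658 to 3875 and 1957 to 4595 CPM. All 4 chondrocyte markers tested were higher at an unadjusted p under 0.05, and DESeq2 called 3. Of the periosteum and tendon markers 7 of 8 were higher, 3 at that p, and DESeq2 called 1. Over all genes, 3.9% were higher at that p and DESeq2 called 0.348% higher. Osteoblast and skeletal muscle markers had lower fitted levels with loading in vehicle in 7 of 8 and 8 of 8 cases, 5 and 4 of them at an unadjusted p under 0.05, against 5.96% of all genes, and DESeq2 called 2 and 1 of them lower, against 0.496% of all genes. The part of these markers in the differences of the collagen genes was not tested.

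In DEX-treated mice, loaded (5) and unloaded (4) tibiae were compared in the same way. No member passed the adjusted threshold, as was the case for 0% of the 22541 genes tested, and 0 members passed it with DESeq2 or with unloaded DEX replicate 4 kept. At an unadjusted p under 0.05, 2 members were higher, against 3.67% of all genes, and 0 were lower, against 0.581%. This count of 2 became 8 without loaded DEX replicate 2, 4 without loaded DEX replicate 5, 1 without unloaded DEX replicate 1 or 2 or loaded DEX replicate 1 or 4, and 0 with the receptor level as a covariate. These were the low chains Col6a5 (0.74 ± 0.30) and Col6a6 (0.85 ± 0.35). Col14a1, which had the largest fitted value for loading in vehicle, had 23.6, 27.7, 33.2, 34.9 and 17.2 CPM in unloaded DEX and 30.5, 51.0, 32.9, 28.03 and 16.9 CPM in loaded DEX libraries, a log2 difference of 0.30 ± 0.27. Col27a1 had 0.17 ± 0.20, Col3a1 0.32 ± 0.34 and Col6a1 -0.13 ± 0.22. For Col1a1 the log2 value was -1.02 ± 0.63 (edgeR adjusted p 0.733), with overlapping groups. Beside these values, 7 of 8 skeletal muscle markers had higher fitted levels with loading in DEX (median 1.13), 3 at an unadjusted p under 0.05, and all 8 osteoblast markers had lower ones (median -0.50), 2 at that p. Their part was not tested.

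Whether loading acted differently under DEX was tested with an interaction term in a fit of 19 libraries. No member passed the adjusted threshold with edgeR or DESeq2, and 0% of the 23653 genes did with edgeR. At an unadjusted p under 0.05, 2 of the 37 members had a positive value, against 8.92% of all genes, and 5 a negative one, against 3.17%. These 7 in all became 12 without unloaded vehicle replicate 4, 4 without unloaded vehicle replicate 1, 2 or 5, loaded vehicle replicate 1 or loaded DEX replicate 4, and 0 with the receptor level as a covariate. The negative values, which mean a lower loading difference in DEX than in vehicle, were those of Col14a1 (-1.42 ± 0.63, edgeR adjusted p 0.404), Col6a1 (-1.14 ± 0.44), Col6a2 (-1.07 ± 0.45), Col27a1 (-0.96 ± 0.35) and Col12a1 (-0.83 ± 0.37). The positive ones were those of the near-background chains Col4a3 (1.46 ± 0.51) and Col6a6 (0.96 ± 0.46). Beside them, all 8 skeletal muscle markers had positive interaction values at an unadjusted p under 0.05 (median 2.33) and all 5 chondrocyte markers tested negative ones (median -2.28), and 0 of these were called by edgeR. DESeq2 called 0 of the muscle and 1 of the chondrocyte markers, the latter with a negative value. Over all genes it called 47 with a positive and 4 with a negative value. The part of these markers in the collagen values was not tested. The comparisons of loading and of DEX share libraries, so their values for a member are not independent.

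**Figure D4:**
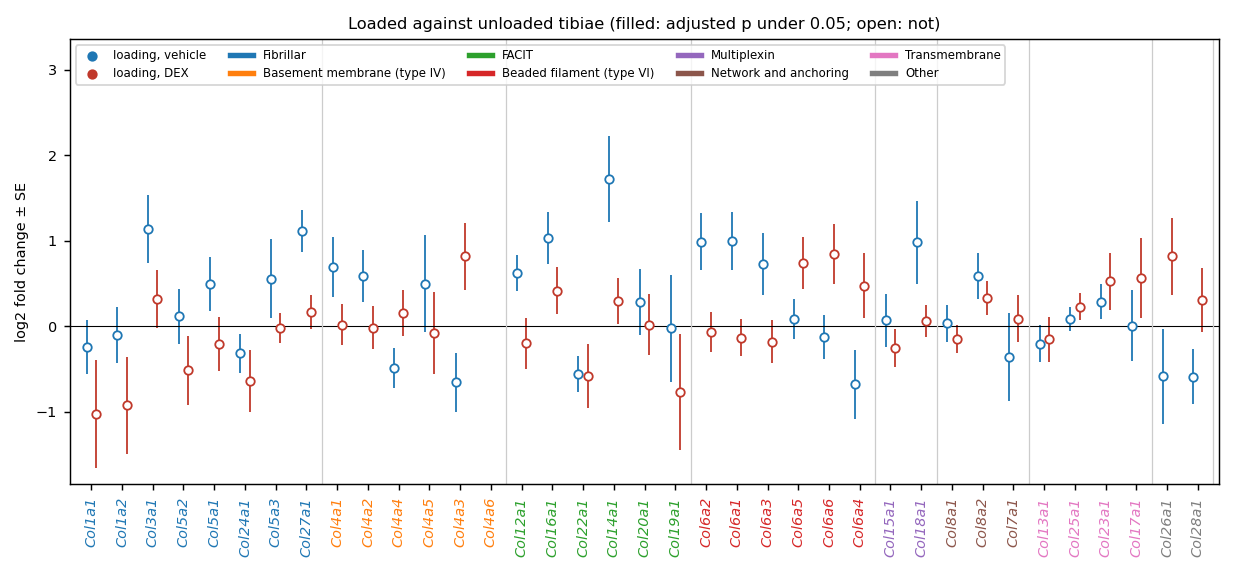
Log2 fold change of loaded against unloaded tibiae with its SE for each collagen chain gene in vehicle and in DEX, grouped by class; all points are open because none passed an adjusted p of 0.05. In vehicle, Col14a1 lies highest, and Col3a1, Col27a1, Col16a1, Col6a1, Col6a2 and Col18a1 lie near 1.

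The classes were also compared by their summed level per length. Fibrillar chains made up 96.1% (94.5% to 97.5%) of the summed CPM per kb of all members in unloaded vehicle libraries (median and range), 93.6% (91.9% to 95.1%) in loaded vehicle, 92.2% (78.7% to 95.5%) in unloaded DEX and 87.3% (79.3% to 91.8%) in loaded DEX libraries. The share of type IV chains was 0.441% (0.311% to 0.673%), 0.772% (0.502% to 0.983%), 1.66% (0.971% to 6.17%) and 2.93% (2.10% to 5.91%) in the same order. DEX libraries thus held a larger share of type IV chains than vehicle libraries, without overlap in either kind of tibia. Their summed level itself had medians of 60.9 (46.9 to 149), 106 (68.5 to 207), 69.8 (60.9 to 88.8) and 73.2 (50.7 to 97.2) CPM per kb, ranges that overlap throughout. In contrast, the summed fibrillar level fell from a median of 15810.4 (12432 to 19306) to 2470.4 (861 to 4244) CPM per kb between loaded vehicle and loaded DEX, and the type VI level from 457 (337 to 833) to 125 (78.0 to 132). These sums are given as a description, without a test.

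**Figure D5:**
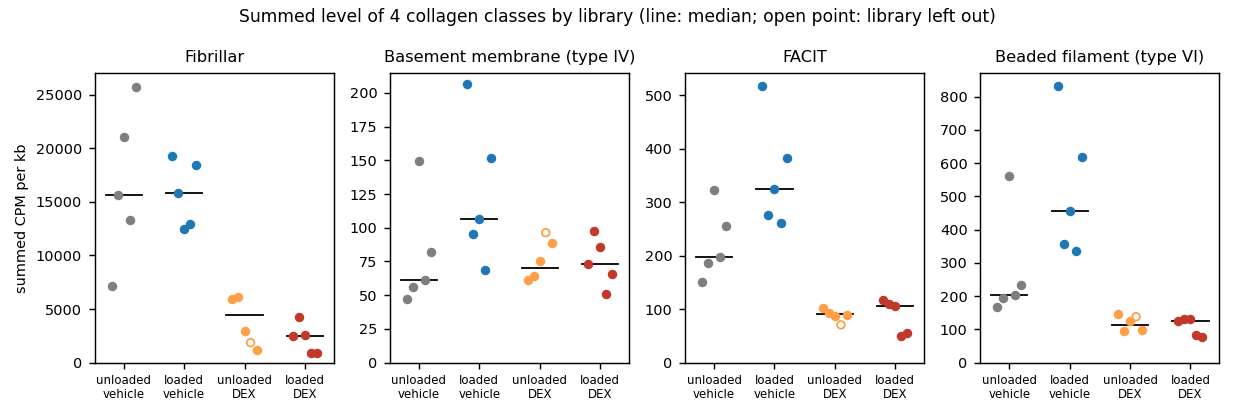
Summed CPM per kb of the fibrillar, type IV, FACIT and type VI genes in each library, with a line at the group median; the open point is unloaded DEX replicate 4, which is left out of the median. DEX points lie below the vehicle points for the fibrillar, FACIT and type VI sums, and overlap them for the type IV sum.

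Ratios of chains that share a trimer or a fibril do not depend on library size, and 5 of them were compared over 4 pairs of groups. None of the 20 two-sided exact permutation tests passed after adjustment, the lowest adjusted p being 0.190. The smallest unadjusted p that these groups allow is 0.00794. Over 20 tests, a single ratio at that smallest p would not have passed, so these tests do not show that the ratios were unchanged. The median ratio of Col1a1 to Col1a2, on the scale of CPM per kb, was 1.97 (1.73 to 2.48) in unloaded vehicle, 1.78 (1.68 to 1.98) in loaded vehicle, 1.62 (1.25 to 1.91) in unloaded DEX and 1.59 (1.27 to 1.75) in loaded DEX libraries. That of Col3a1 to Col1a1 was 0.0525 (0.0387 to 0.109), 0.158 (0.0996 to 0.249), 0.0923 (0.0415 to 0.249) and 0.222 (0.137 to 0.339). It differed by 1.35 on the log2 scale with loading in vehicle (exact permutation p 0.0238, adjusted p 0.190), with overlapping groups. The remaining ratios, Col5a1 to Col5a2, Col4a1 to Col4a2 and Col6a3 to Col6a1, had medians from 0.611 to 0.812, from 1.28 to 1.60 and from 0.763 to 0.929 over the groups.

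The genes that act on collagen chains were read from lists of hydroxylation, folding, propeptide removal and crosslinking genes. With DEX in loaded tibiae, 11 of the 12 genes for prolyl and lysyl hydroxylation, 4 of 5 for folding and export, 5 of 7 for propeptide removal and all 5 of the lysyl oxidase family, which crosslink fibrils, were called lower, against 8.35% of all genes, and the folding gene list also held Tmem38b, an endoplasmic reticulum ion channel gene named after its values were seen, which was called higher (0.67). In unloaded tibiae the counts called lower were 6 of 12, 4 of 5, 1 of 7 and 2 of 5, against 3.99% of all genes. With DESeq2 they were 8 of 12, 4 of 5, 4 of 7 and 2 of 5, against 7.34% of all genes. The 7 cartilage collagens were called lower in loaded tibiae in all 7 cases, with a median log2 fold change of -3.29, and in 1 case in unloaded tibiae (2 with DESeq2). With loading in vehicle, 4 of these 7 had an unadjusted p under 0.05 and a higher level, against 3.9% of all genes. After adjustment edgeR called 0 of them and DESeq2 3 higher, against 0.348% of all genes.

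Marker genes of bone cell types are given beside these values. With DEX in loaded tibiae, 6 of 8 osteoblast, 3 of 5 osteocyte and 5 of 8 periosteum and tendon markers were called lower, against 8.35% of all genes, and the osteocyte marker Fgf23, named after its values were seen, was called higher (log2 fold change 1.63). The osteoblast markers summed to 3324 to 5331 CPM in loaded vehicle and 1249.6 to 2747 CPM in loaded DEX libraries, and the periosteum and tendon markers to 1957 to 4595 and 673 to 1717 CPM, both without overlap. All 5 chondrocyte markers tested were called lower (median log2 fold change -3.23), and the 6 on the list summed to 194 to 696 and 35.8 to 75.5 CPM without overlap. Endothelial markers, 1 of 8 called lower, summed to 532 to 866 and 306 to 675 CPM with overlap. Neutrophil markers were called higher with DEX in 4 of 5 cases, against 12.9% of all genes, and summed to 2925 to 4354 and 4884 to 11481 CPM, without overlap. The 8 skeletal muscle markers, of which Myh1 was called higher (named after its values were seen), summed to 4007 to 20544 and 7937 to 22352 CPM with overlap.

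With DEX in unloaded tibiae, 3 of 8 osteoblast, 2 of 4 osteocyte and 4 of 8 periosteum and tendon markers tested were called lower, against 3.99% of all genes, and 4 of 5 neutrophil markers higher, against 2.86%. Of the 4 chondrocyte markers tested there, 0 were called by edgeR, with 1 at an unadjusted p under 0.05 and 1 called by DESeq2. The osteoblast markers summed to 3659.7 to 5596 CPM in unloaded vehicle and 1932 to 3535 CPM in unloaded DEX libraries, and the periosteum and tendon markers to 1658 to 3875 and 849 to 1261 CPM, both without overlap. All 8 skeletal muscle markers had lower fitted levels with DEX there (median log2 fold change -1.84), 6 at an unadjusted p under 0.05 against 13.4% of all genes, with 0 called by edgeR and 2 by DESeq2, which called 7.34% of all genes lower, and they summed to 8641 to 41196 and 2477 to 18193 CPM with overlap. The part of any of these lists in the collagen differences was not tested.

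Some members lie side by side in the genome. Col4a1 and Col4a2 are transcribed away from each other on chromosome 8 and overlap by 22 bases, Col4a4 and Col4a3 lie head to head 71 bases apart, and Col4a6 and Col4a5 lie 1308 bases apart on the X chromosome. Col3a1 and Col5a2 end towards each other 24614 bases apart, and Col6a1 and Col6a2 follow each other with 85161 bases between them. Reads from the overlap of Col4a1 and Col4a2 could count for either gene.

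Promoter windows of 250 bases before the transcription start were read from RefSeq sequences on GRCm38.p6 for 30 of the 37 members, and no window was given for Col1a1, Col5a2, Col4a3, Col12a1, Col14a1, Col22a1 and Col26a1. Of the genes that were lower with DEX in both kinds of tibia, 3 whose window overlaps no annotated exon are given, 5′ to 3′ on the strand of the gene. They were picked to be unlike each other. Col24a1, Col6a2 and Col15a1 also qualified, with GC contents of 58.0%, 59.2% and 53.6%. Capitals mark a match to CCAAT, to the letters TATAAA or to the GC box letters GGGCGG on either strand. The TATAAA match lies at position -117 from the transcription start in Col3a1 and at -237 in Col13a1, away from the usual place of a TATA box just before the start.
Col3a1 (chr1:45311288-45311537, plus strand): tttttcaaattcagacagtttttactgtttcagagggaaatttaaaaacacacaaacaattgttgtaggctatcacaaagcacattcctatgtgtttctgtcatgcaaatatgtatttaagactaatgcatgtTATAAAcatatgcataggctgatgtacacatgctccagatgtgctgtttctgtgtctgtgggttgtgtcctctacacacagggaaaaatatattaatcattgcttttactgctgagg
Col5a1 (chr2:27886175-27886424, plus strand): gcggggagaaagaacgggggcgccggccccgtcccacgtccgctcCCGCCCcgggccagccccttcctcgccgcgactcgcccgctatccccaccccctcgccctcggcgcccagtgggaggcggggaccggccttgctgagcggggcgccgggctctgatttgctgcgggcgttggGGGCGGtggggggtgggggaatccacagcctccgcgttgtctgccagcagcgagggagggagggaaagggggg
Col13a1 (chr10:61979109-61979358, minus strand): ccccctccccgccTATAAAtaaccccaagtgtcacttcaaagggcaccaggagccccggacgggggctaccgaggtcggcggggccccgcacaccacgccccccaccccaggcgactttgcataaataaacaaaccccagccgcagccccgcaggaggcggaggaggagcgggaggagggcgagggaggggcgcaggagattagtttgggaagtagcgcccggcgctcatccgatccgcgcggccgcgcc

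The Col3a1 window had a GC content of 35.2% and no CpG, that of Col5a1 76.4% and 28 CpG, and that of Col13a1 68.8% and 24 CpG. Over the 30 member windows, CCAAT was found in 11 (36.7%, against 33.8% of all 32851 windows), TATAAA in 3 (10.0% against 12.4%) and GGGCGG in 18 (60.0% against 32.7%), with a median GC content of 59.4% against 52.4%. The letters AGAACA, part of the element bound by the glucocorticoid receptor, occurred on either strand in 1 window (3.33% against 16.1%), that of Col20a1. These matches describe the windows and do not show binding.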

How the data were processed

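RNA was sequenced from mouse tibiae in 20 libraries made with a stranded total RNA kit, with 5 libraries per group. The authors deposited 1 table of expected counts, with 54446 genes, not scaled for library size. The submitters' processing notes name STAR 2.7.10a, RSEM 1.2.28 and GRCm38. These expected counts were rounded to whole numbers. Depth was 4641437 to 13032018 counts per library. Differences were tested with edgeR 4.0.16 in R 4.3.3 (quasi-likelihood F test, filterByExpr on the groups compared, TMM, Benjamini-Hochberg over all genes tested, threshold 0.05), with DESeq2 1.42.0 as an alternative. The script was tested on simulated data. An SE is the absolute log2 fold change divided by the square root of F. Levels are CPM with TMM over all 20 libraries, also per kb of the longest GENCODE M21 transcript (54409 identifiers matched without version). Background was the 95th percentile of CPM per kb over 1459 receptor genes.

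Unloaded DEX replicate 4 was left out of the fits and group values, because the study removed a DEX-4 sample and plots 4 unloaded DEX values. The vehicle library called unnumbered has number 6 in the deposited table, which no label has. The labels do not say that the libraries of a group came from separate mice, and p-values measure the spread between these libraries. Ratios were compared with exact permutation tests. Every member called in a comparison is named, with Col1a1, Col1a2, Col3a1, Col5a1, Col5a2, Col4a1, Col4a2, Col6a1, Col6a2, Col6a3, Col12a1, Col14a1, Col15a1 and Col18a1. The members and all lists were chosen with earlier results of these data known. Alternatives were other size factors and filters, all 4 groups in 1 model, all 20 libraries, a replicate block, a receptor covariate and each library left out. Leaving out DEX replicates 1 and 4, and the block's libraries without the block, were chosen after seeing the data.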

Additional observations from a re-analysis of the deposited data

Results flagged for a closer look

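The value of each member in each group was compared with the others of its group, and a library stood apart in 15 of 148 cases. Chance gives about 1 in 20 for independent cases, but the members share libraries, so these shares cannot be compared. A library was taken to stand apart where its gap to the nearest other library exceeded the critical share of the range (Dixon's test). Most cases fell on 1 library.

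Unloaded vehicle replicate 4 stood above the rest of its group in 8 members. It had 746.6 CPM of Col6a1 (others 245 to 320.3), 958 CPM of Col6a2 (others 289.6 to 405) and 1848 CPM of Col6a3 (others 455 to 729). It also had 126 CPM of the FACIT chain Col14a1 (others 22.1 to 37.2), 6.28 CPM of Col19a1 (others 0.330 to 1.55) and 159.7 CPM of Col5a3 (others 29.8 to 54.9). For the basement membrane zone, it had 138 CPM of Col18a1 (others 21.3 to 35.4) and 24.1 CPM of Col7a1 (others 4.24 to 5.15). Its Col27a1 value of 74.1 CPM lay below all loaded vehicle values. The chondrocyte markers summed to at most 151 CPM in the unloaded vehicle libraries, itself included, against at least 194 CPM in the loaded ones. In contrast, its Col6a1, Col6a2, Col6a3, Col14a1, Col18a1 and Col5a3 values lay within the loaded vehicle ranges, and those of Col19a1 and Col7a1 above them. What sets this library apart was not tested.

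Loaded DEX replicate 4, which had the highest receptor level and the lowest total of the 20 libraries, stood above its group for Col4a4 with 9.29 CPM (others 4.51 to 4.81), Col6a4 with 12.6 CPM (others 2.93 to 4.97) and Col6a6 with 18.4 CPM (others 5.09 to 8.45). The remaining cases were Col4a6 at 0.468 CPM in unloaded DEX replicate 5 (others 0.965 to 1.01), Col19a1 at 4.08 CPM in unloaded DEX replicate 3 (others 1.01 to 1.40), Col6a5 at 11.3 CPM in loaded vehicle replicate 4 (others 5.82 to 7.07) and Col25a1 at 24.5 CPM in loaded vehicle replicate 2 (others 16.9 to 19.1).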

How the results depend on the processing

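Of the alternatives run, those that moved a count of called members by more than 1.5 times or turned the direction of a called member, are given here, with changes of medians and of counts at an unadjusted p under 0.05, and the cause was not tested. Without both DEX replicate 4 libraries, and without DEX replicates 1 and 4, the members at an unadjusted p under 0.05 were 1 and 1 for loading in DEX and 4 and 3 for the interaction. For loading in vehicle, 0 members were called, against 1 with DESeq2 (143 genes in all) and 1 without the filter on low counts (50 genes in all), and 0 with each library left out in turn. There the 9 members at an unadjusted p under 0.05 became 15 without unloaded vehicle replicate 4, and the members' median of 0.10 became -0.02 with the covariate for receptor reads, 0.16 without the filter, 0.29 with at least 10 counts in every library and 0.17 with the block, and ranged from 0.04 to 0.46 with a library left out. For loading in DEX and for the interaction, 0 were called in every alternative run, including each library left out. The interaction's median over the members of -0.34 became 0.01 with the covariate, and ranged from -0.58 to -0.19 with a library left out. The loading median in DEX of 0.02 lay between -0.05 and 0.13 over the alternatives. For DEX in loaded tibiae, the 24 calls became 0 with the covariate for receptor reads, where Col26a1 turned from 2.23 to -0.135 on the log2 scale and the members' median became -0.88, and stayed between 23 and 27 with a library left out. For DEX in unloaded tibiae, the 14 calls became 9 with the covariate, while genes called in all went from 1351 to 2657. With a library left out the members called ranged from 1 to 14, the lowest without unloaded DEX replicate 3 (129 genes in all), and 9 without unloaded DEX replicate 2 or unloaded vehicle replicate 5.

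With the replicate number as a replicate block, DEX in unloaded tibiae gave 4 calls from 6 libraries (520 genes in all), against 5 in the same libraries without the block (566 genes in all). The block moved no other count of called members by over 1.5 times. In the comparisons of DEX with vehicle, it joins libraries of mice with different treatments, so a shared number has no known meaning there. At an unadjusted p under 0.05, the block gave 7 members for loading in DEX (1 in the same libraries without it) and 3 for the interaction (2 without it). The median for DEX in unloaded tibiae became -0.43 with it and -0.44 in the same libraries without it. Deviations of same-numbered libraries correlated between -0.306 and 0.295 in vehicle and between 0.01 and 0.491 in DEX, so the numbers were not treated as pairs. Members near background had as few as 1 count in a library (Col19a1), which limits the differences that could be detected in them.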
